A study of Danio rerio with 12 samples.

Results

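The guanylate cyclases of the retina and the proteins that activate them were followed in whole zebrafish larvae exposed to silver. The set held 8 genes: the cyclases gucy2f and gucy2d, and guca1a, guca1b, guca1c, guca1d, guca1e and guca1g, which encode guanylate cyclase-activating proteins (GCAPs). A probe belonged to the set if the platform's symbol, or a synonym of it, was one of these names, which gave 13 probes among 43603. The 8 genes stand among 15080 named genes and 28497 features in all. The genes were selected on the log ratios of exposed against control larvae, above all the low ratios of guca1c, and on their shared pathway. Those ratios are therefore given as a description. The model over all features covers the members too, but whether a member passed against control is no independent test of it, and only the difference between the silver groups is reported as a test.

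Photoreceptors keep cation channels of the outer segment open in darkness with cyclic GMP, which the membrane guanylate cyclases make from GTP. Light lets phosphodiesterase 6 break cyclic GMP down, the channels close and calcium falls. GCAPs are calcium-binding EF-hand proteins that sense this fall and switch the cyclase on, which restores cyclic GMP and lets the cell recover and adapt. Fish carry more GCAP genes than mammals, and in zebrafish GCAP3, the product of guca1c, is known from cones.

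The larvae, 21 days old at harvest, were AB wild types. From 6 days post fertilization they were exposed for 15 days to 0.01 mg/L silver nitrate (AgNO3), a soluble salt, or to 0.01 mg/L silver nanoparticles (AgNPs). Controls were kept in conditioned water with methylene blue, which the labels name for that group alone. If the exposed larvae had no methylene blue, silver and its absence cannot be told apart in the ratios against control. RNA of an exposed sample and of a control sample competed on each of 12 Agilent 2-colour arrays, 6 for each silver form, and on 3 of each 6 the exposed RNA carried Cy5 and on the others Cy3. By their codes in the labels, 6 control samples served, and each met 1 AgNO3 sample and 1 AgNPs sample, so the comparisons with control share their controls. The labels do not say how many fish or tanks stand behind a sample, so a p-value here reflects no more than the spread among these samples, which may be technical. The larvae were taken whole, so fewer photoreceptors and less RNA per photoreceptor cannot be told apart.

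Values are log2 ratios, and the sign is given as exposed over control. That direction is only likely. It takes the table to hold Cy5 over Cy3 where Cy5 marked exposed RNA, and the dye-swapped arrays to have had their sign turned before deposit. Under the reverse order every sign below would flip. Had the swapped arrays been left as scanned, guca1c would stand at -0.05 in AgNO3 and 0.06 in AgNPs. The interquartile range of all values was 0.216 to 0.342 on the AgNO3 arrays, 0.293 and 0.233 on AgNPs replicates 1 and 2, and 0.0946 to 0.116 on AgNPs replicates 3 to 6. Ratios carry no level, so they do not show how strongly any of these genes was detected.

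One property of the deposited values separated the members before any comparison. On each array many probes held exactly the same value. The 39962 values of AgNPs replicate 4 took only 4155 distinct numbers, and 83.4% of them were shared by 10 or more probes. On the AgNO3 arrays that share was 35.2% to 58.4%, on AgNPs replicates 1 and 2 it was 51.0% each, and on AgNPs replicates 3 to 6 it was 72.8% to 83.4%. Shared values lay mostly near 0: of the values within 0.1 of 0, 84.4% were shared by 10 or more probes, against 31.3% of those over 0.5 in size. Intensities were not used here, and the reason for the sharing was not tested.

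The probes of guca1c held values of their own. Its first probe, A_15_P103714, had an unshared value on 11 of 12 arrays and its second, A_15_P688556, on 9 of 12, and at most 3 probes held the same number. The first probe of gucy2d, A_15_P113391, had a value shared by fewer than 10 probes on 9 of 12 arrays, and its second, A_15_P146761, on 6. The probes of gucy2f, guca1b, guca1d and guca1e stood otherwise. The value of the gucy2f probe was shared by a median of 399 probes and on no array by fewer than 10. The guca1b probe shared its value with a median of 193 probes, itself included, and the 3 guca1d probes with medians of 48, 353 and 303.5. For the 2 guca1e probes the medians were 105 and 247. The single probes of guca1a and guca1g lay nearer to those of gucy2d, with medians of 9 and 4.5. Their values were held by fewer than 10 probes on 6 and 7 of 10 arrays. On the AgNPs arrays alone sharing was wider, with medians of 884 for guca1a and 27 for guca1g. The first gucy2d probe had a median of 7 there and the second 987. Of the 8 members, 1 (12.5%) had a probe with a value held by fewer than 10 probes on 10 or more arrays, against 31.3% of the 14329 named genes tested. The ratios of gucy2f, guca1b, guca1d and guca1e were thus, on most arrays, numbers that these probes had in common with many unrelated ones.

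**Figure D1:**
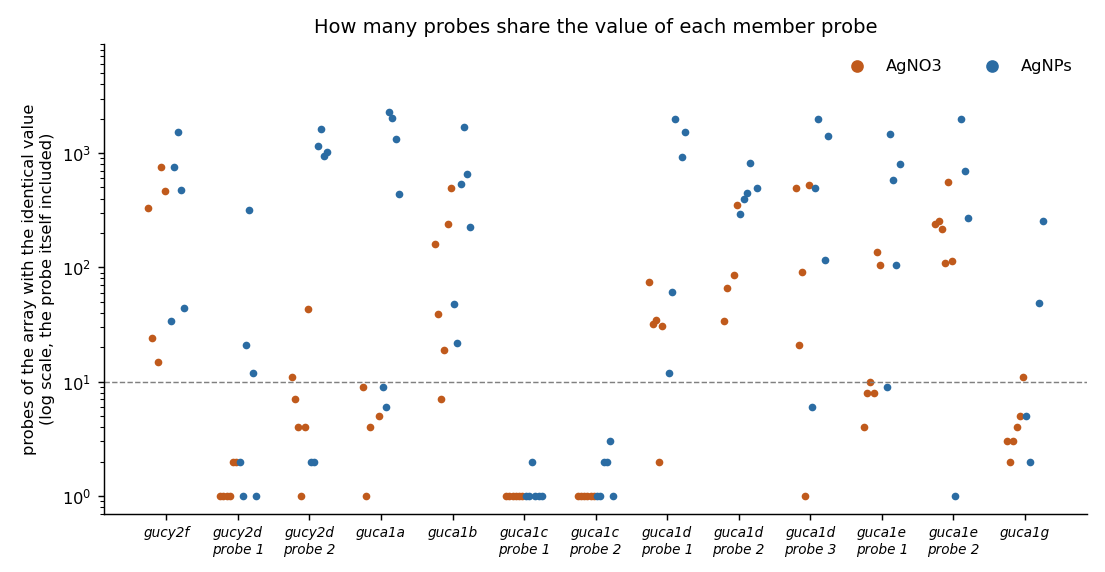
The number of probes on an array that hold exactly the value of a member's probe, the probe itself included (log scale), with 1 point per array for the AgNO3 and AgNPs groups and a dashed line at 10 probes. Both guca1c probes stay at 3 or below, whereas guca1a reaches 2294 and guca1d 2005.

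The activator guca1c was the member with low ratios in both silver groups. In AgNO3, the average of its 2 probes was lowest at -0.86, had a median of -0.57 and was highest at -0.36. All 6 arrays lay below 0. The model estimate was -0.59 (SE 0.09, n = 6, 95% interval -0.78 to -0.39), a level in exposed larvae of 0.666 times that of controls (0.583 to 0.761). In AgNPs the lowest value was -1.08, the median -0.66 and the highest -0.53, so again no array reached 0. The estimate was -0.73 (SE 0.09, n = 6, interval -0.92 to -0.54), or 0.603 times control (0.528 to 0.689). The arrays of both groups overlapped.

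Against all features, guca1c lay in the lower tail on every array. It stood between the 3.75 and the 10.96 percentile of the tested features on the AgNO3 arrays and between the 1.08 and the 6.71 percentile on the AgNPs arrays. On AgNPs replicates 3 to 6, where most values were close to 0, its percentile was 3.91, 3.21, 2.31 and 1.08. Of the 7 members tested, 0 passed an adjusted p of 0.05 in AgNO3, where 0.0119% of 25264 features passed, and 1, guca1c, passed in AgNPs, where 0.0237% did and 0.0198% were called lower. It was the 1 member lower by 0.5 or more, in AgNO3, as were 2.43% of all tested features, and in AgNPs, as were 1.27%. It was lower on all 6 arrays in AgNO3, as were 2.54% of the features with 6 values, and in AgNPs, as were 2.33%, and 0.279% of features with 12 values were lower on all 12. The AgNPs call was lost in 9 of 12 models that left out 1 array (AgNO3 replicates 1, 3, 4 and 5 and AgNPs replicates 1, 2, 4, 5 and 6), in which the estimate stayed between -0.77 and -0.65. Nothing is read from these counts, since the same ratios brought the gene into view.

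**Figure D2:**
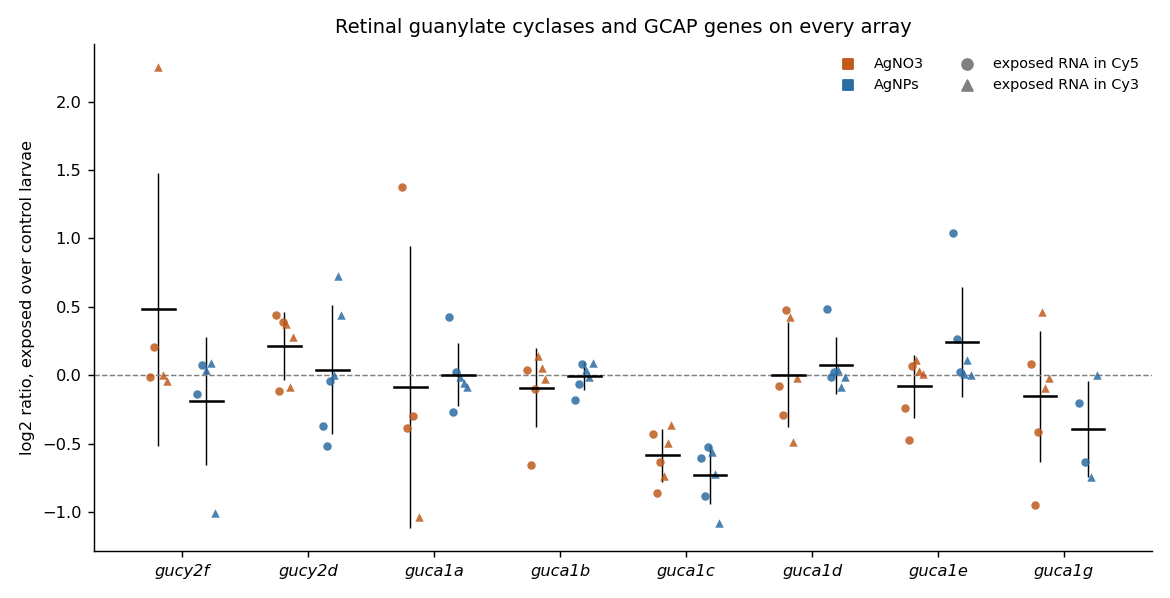
Log2 ratio of exposed over control larvae for each member on every array, probes averaged per gene, with the mean (bar) and SD (line) of the AgNO3 and AgNPs arrays. Circles are arrays with exposed RNA in Cy5 and triangles those in Cy3. For guca1c all 12 points lie below 0, between -1.08 and -0.36. The other members have points on both sides of 0 in each group, except guca1e in AgNPs, where all 6 lie above 0. Some have single arrays far out.

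The dye orientations gave similar ratios for guca1c. In AgNO3 the mean was -0.64 (SD 0.22, n = 3) with exposed RNA in Cy5 and -0.53 (SD 0.19, n = 3) in Cy3. In AgNPs it was -0.67 (SD 0.19, n = 3) and -0.79 (SD 0.27, n = 3). Each differed from its partner by less than the spread between arrays.

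The probes of guca1c gave the same direction but not the same value on single arrays. The first averaged -0.68 (SD 0.20) in AgNO3 and -0.59 (SD 0.42) in AgNPs, and the second -0.49 (SD 0.41) and -0.87 (SD 0.47), each with n = 6. Each was lower on 11 of 12 arrays. The exceptions were AgNPs replicate 1, with 0.20 for the first probe against -1.41 for the second, and AgNO3 replicate 6, with -0.74 against 0.02. Over the 12 arrays the Pearson r between the probes was -0.49, given as a description. It leans on AgNPs replicate 1, where the probes lay furthest apart, and r without that array is not given here. The average of both probes spread less than its parts, with an SD of 0.19 in AgNO3 and 0.22 in AgNPs. The small error of guca1c rests on this averaging: with probes kept apart, neither probe passed in either group, at an SE of 0.12 for the first and 0.17 for the second. Both probes carry the same RefSeq transcript accession in the platform annotation.

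**Figure D3:**
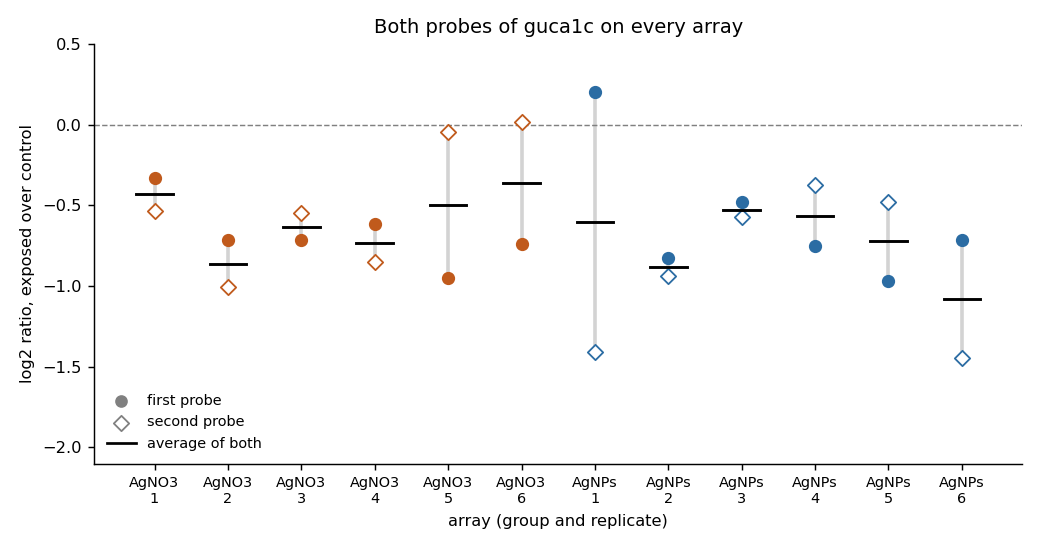
Log2 ratio of exposed over control larvae for both probes of guca1c on each of the 12 arrays, the first as filled circles, the second as open diamonds and their average as a black bar. The gap is widest on AgNPs replicate 1, from 0.20 to -1.41, and the averages stay between -1.08 and -0.36.

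The cyclases did not share this pattern. gucy2d, which the array lists under its older name gc3 and which serves zebrafish cones, had ratios from -0.12 to 0.44 in AgNO3, with a median of 0.33 and 4 of 6 arrays above 0. In AgNPs it ran from -0.52 to 0.72 with a median of -0.02, and 3 of 6 arrays lay below 0. The estimates were 0.21 (SE 0.14) and 0.04 (SE 0.14), with intervals of -0.09 to 0.51 and -0.26 to 0.34.

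In AgNPs the ratios of gucy2d differed between the dye orientations. The mean was -0.31 (SD 0.24, n = 3) with exposed RNA in Cy5 and 0.39 (SD 0.36, n = 3) in Cy3. The 3 Cy5 arrays all lay below the 3 Cy3 arrays, though the nearest stood at -0.04 and 0.001. Within AgNPs the orientations also used different exposed samples and different control samples, so dye, exposed sample and control sample cannot be told apart there. The share of all features with such a split is not given here. In AgNO3 the means of gucy2d were 0.24 (SD 0.31, n = 3) in Cy5 and 0.19 (SD 0.24, n = 3) in Cy3. Its first probe, which held an unshared value on 6 of 12 arrays, averaged 0.36 in AgNO3 with 5 of 6 arrays above 0, and 0.16 in AgNPs with 3 of 6. The second averaged 0.07 and -0.08. The probes had the same sign on 10 of 12 arrays but differed in size. On AgNPs replicates 4 to 6, with exposed RNA in Cy3, the first stood at 0.02, 1.41 and 0.83. The second stood at -0.01, 0.04 and 0.05 there, values held by 1633, 942 and 1032 probes. The high Cy3 mean in AgNPs thus came from the first probe.

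For gucy2f, the other retinal cyclase, 5 arrays of each group had a value. In AgNO3 they were -0.02, 0.21, 2.25, 0.00 and -0.04, where replicate 4 alone was far from 0. In AgNPs they were -0.14, 0.07, 0.04, 0.09 and -1.01, where replicate 6 alone was. The model estimates of 0.46 (SE 0.34) and -0.21 (SE 0.34) rest on those single arrays. Without AgNO3 replicate 4 the AgNO3 estimate was 0.04, and without AgNPs replicate 6 the AgNPs estimate was 0.01. Another retinal cyclase gene, gc2, is no member of the set and had 8 values in all, too few for the model. They ran from -2.75 to 2.18 in AgNO3 and from -0.01 to 0.58 in AgNPs.

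Among the other GCAP genes, those of GCAP1 and GCAP2, the activators shared with mammals, showed no direction. guca1a, named guca1aa in current RefSeq, was not tested because 2 of its AgNO3 arrays, both with exposed RNA in Cy3, had no value. Its 4 AgNO3 values were 1.38, -0.39, -0.30 and -1.04, on both sides of 0. Its AgNPs values lay between -0.27 and 0.42 with a median of -0.03. guca1b had values from -0.66 to 0.14 in AgNO3, with a median of 0.00, and from -0.18 to 0.09 in AgNPs, with a median of 0.01. In both groups 3 of its 6 arrays lay below 0, and the estimates were -0.09 (SE 0.08) and -0.01 (SE 0.08).

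The fish paralogs guca1d, guca1e and guca1g, for GCAP4, GCAP5 and GCAP7, had no call in either group. guca1d ran from -0.49 to 0.48 in AgNO3 and from -0.08 to 0.49 in AgNPs, with estimates of 0.00 (SE 0.12) and 0.07 (SE 0.12). Pairs of its probes had the same sign on 3 of 7, 5 of 9 and 4 of 8 arrays. guca1e, named guca1ab.1 in current RefSeq, ran from -0.48 to 0.11 in AgNO3. In AgNPs the average of its probes lay above 0 on all 6 arrays, as did 2.55% of the features with 6 values. In AgNO3 0 of the 6 members with 6 values did, against 2.01% of features. The AgNPs values of guca1e lay barely above 0: the lowest was 0.003, the median 0.07, and replicate 1 alone reached 1.04. On replicate 1 only its second probe had a value, and on replicate 4 that probe stood at -0.07. Its probes had the same sign on 4 of 9 arrays. The estimate in AgNPs was 0.24 (SE 0.13), and 0.07 without replicate 1. Whether its probes also bind transcripts of guca1ab.2, a neighbouring gene in the RefSeq order (assembly GRCz12tu) that was not measured here, was not tested.

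The 4 values of guca1g in AgNPs were -0.20, -0.63, -0.74 and 0.004, of which the last lay close to 0, and replicates 3 and 4 had no value. The estimate was -0.39 (SE 0.19, interval -0.83 to 0.05). In AgNO3 its values ran from -0.95 to 0.46, with a median of -0.06 and an estimate of -0.16 (SE 0.16).

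On AgNPs replicates 3 to 6 most member values lay close to 0. Of the 38 values that the 11 probes other than those of guca1c had on these 4 arrays, 32 (84.2%) lay within 0.1 of 0, against 70.9% of the values of all probes there. On the other 8 arrays 30 of 78 (38.5%) did, against 41.4% of all. None of the 8 guca1c values on AgNPs replicates 3 to 6 lay within 0.1 of 0. That gene was chosen for its low ratios, and leaving it out raises the share of the members. No excess over all probes is therefore read from these shares.

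The salt and the particles were then compared directly, as AgNO3 minus AgNPs. Of the 7 tested members 0 passed (limma, adjusted p 0.859 to 0.936), as did 0% of the 25264 features. An unadjusted limma p under 0.05 was held by 0 of the 7 members and by 1066 of the 25264 features. With so few members, nothing is read from that count. The difference for guca1c was 0.14 (95% interval -0.13 to 0.41). It was 0.17 for gucy2d (-0.25 to 0.60), 0.67 for gucy2f (-0.40 to 1.74) and 0.24 for guca1g (-0.33 to 0.80). For guca1e it was -0.32 (-0.74 to 0.09), for guca1b -0.08 (-0.34 to 0.17) and for guca1d -0.07 (-0.45 to 0.32). The intervals hold 0. Those of gucy2f, guca1g and guca1e also hold differences as large as the ratio of guca1c in either group. That of gucy2d holds one as large as the guca1c ratio in AgNO3. The intervals thus do not show that the silver forms acted alike on these genes.

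Most pairs of members varied little together. Over the arrays with values, the Pearson r between guca1c and the 7 other members ran from -0.02 to 0.31. Among the other 21 pairs it ran from -0.38 to 0.73, highest for guca1b and guca1g (0.73 over 10 arrays, 0.61 without AgNO3 replicate 2). For guca1d and guca1e it was 0.59 over 12 arrays and 0.40 without AgNPs replicate 1. For guca1d and gucy2f it was 0.58 over 10 arrays and -0.26 without AgNO3 replicate 4. These are descriptions over arrays that share controls and dye orientation.

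The genes whose ratios followed guca1c most closely over the 12 arrays, among 11942 genes with a value on all, were ctss2.2 (r = 0.84), cldn8.2 (0.81), lrrk2 (0.81), cdcp1a (0.78) and prxl2b (0.78). Their ratios were not as low as those of guca1c: in AgNPs ctss2.2 had -0.25 and prxl2b -0.33, and in AgNO3 all 5 lay between -0.08 and 0.07. Closest to gucy2d were nqo1 (0.84), arhgap21b (0.84) and ppap2d (0.82). For guca1b they were zbed4, hemk1 and dct (0.96 each), for guca1d agrn, tmppe and rsad1 (0.89 to 0.90), and for guca1e six3a, chst12a and sult2st1 (0.94 to 0.95). The probes of these last 3 members mostly held shared values. With so many genes over 12 arrays, these values describe likeness only.

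The genes next to guca1c in the RefSeq order (GRCz12tu) did not have its low ratios. mre11a, a DNA repair gene on one side, had -0.003 in AgNO3 and 0.10 in AgNPs, and ankrd49 beyond it -0.01 and -0.06. On the other side zgc:153184 had -0.02 and 0.02, and the gene between, c15h3orf52, had no probe here.

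Cyclic GMP acts on channels, and calcium leaves through exchangers. Of 18 such genes listed, 5 were measured and 0 passed in either group. The median ratio of the 5 was -0.01 in AgNO3 and -0.06 in AgNPs, against -0.01 and 0.00 over all features tested. The exchanger genes slc24a1 and slc24a2 had -0.01 (SE 0.09) and -0.01 (SE 0.13) in AgNO3 and 0.04 (SE 0.09) and -0.30 (SE 0.13) in AgNPs. slc24a3 had -0.37 (SE 0.47) and -0.32 (SE 0.52), slc24a4a 0.00 and -0.06 (SE 0.09 each), and the channel gene cnga2a -0.08 (SE 0.05) and -0.03 (SE 0.05). By the best probe of each gene, cnga2a had a value held by fewer than 10 probes on only 1 of 12 arrays. For slc24a3 it was 3 arrays, for slc24a1 4, for slc24a2 11 and for slc24a4a 12. Of the channel subunits listed for rods and cones, none was among the 5 and they were not analysed here.

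Recoverins, which sense calcium like GCAPs but restrain the opsin kinase, and their visinin-like relatives were measured for 11 of 14 listed genes. Again 0 passed in either group, with medians of -0.01 in AgNO3 and -0.07 in AgNPs. rcvrna had -0.01 (SE 0.08) and 0.21 (SE 0.08), rcvrn2 0.21 (SE 0.10) and 0.10 (SE 0.10), and rcvrn3 0.16 (SE 0.19) and -0.27 (SE 0.19). Unlike most members, these 3 had values held by fewer than 10 probes on all 12 arrays. Among the relatives, vsnl1a, vsnl1b, hpca and hpcal1 lay between -0.19 and -0.05 in AgNO3 and between -0.07 and 0.07 in AgNPs. ncs1a, ncs1b and ncalda lay between 0.04 and 0.14 in AgNO3 and between -0.25 and -0.09 in AgNPs. The lowest was ncaldb, with -0.27 (SE 0.18) and -0.52 (SE 0.18).

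**Figure D4:**
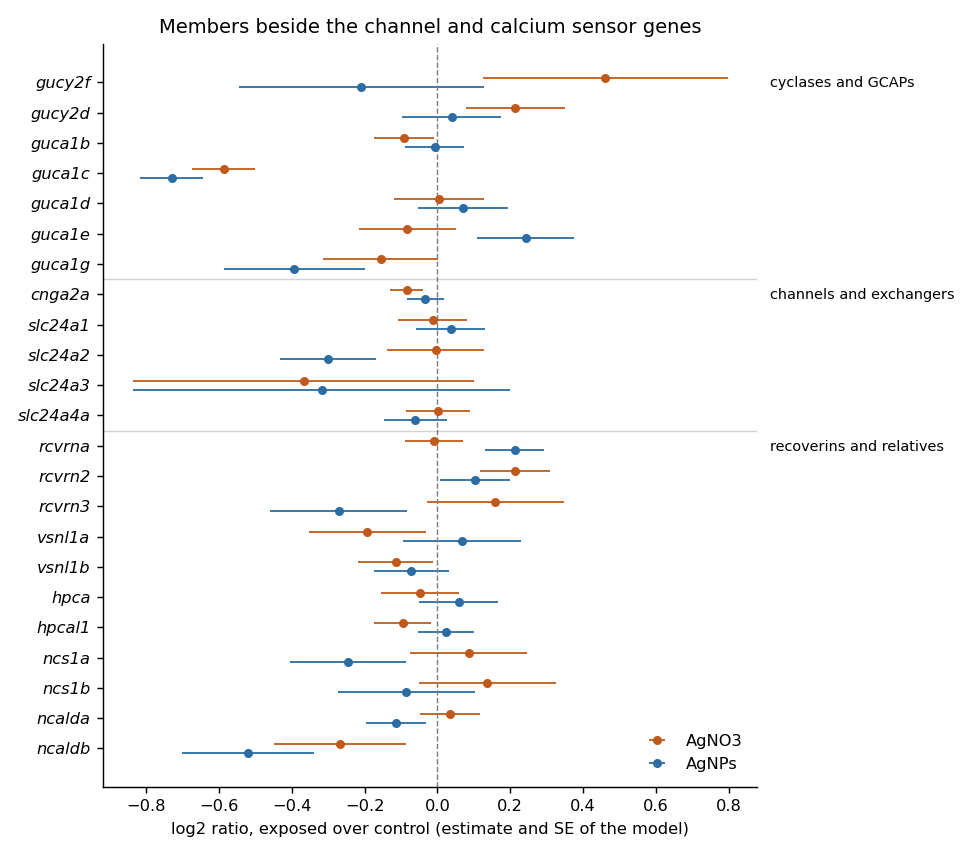
Model estimates of the log2 ratio of exposed over control larvae, with SE, for the 7 tested members, 5 channel and exchanger genes and 11 recoverins and relatives in AgNO3 and AgNPs. The estimates of guca1c, -0.59 and -0.73, lie furthest from 0 for their errors, while gucy2f and slc24a3 have the widest errors. guca1c was chosen for its low ratios, and its small error rests on averaging probes that differed on single arrays.

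Genes that serve the cyclases otherwise showed no calls. Of 12 measured genes for guanine nucleotide supply and cyclase trafficking, 0 passed in either group, and their medians were -0.01 and -0.05. Among them rd3, whose product carries retinal cyclases to the outer segment and blocks them on the way, had 0.70 (SE 0.28) in AgNO3 with 2 of 6 arrays below 0, and -0.20 (SE 0.31) in AgNPs. It is named here after its values were seen. Of 4 measured genes of other guanylate cyclases and natriuretic peptide receptors, 2 were tested and 0 passed.

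The other phototransduction genes are given against a background of 51.8% of all tested features lower in AgNO3 and 48.3% in AgNPs. Of 20 phosphodiesterase 6 and transducin genes, 10 were higher and 10 lower in AgNO3 and 13 higher and 7 lower in AgNPs, with medians of 0.04 and 0.09, and 0 passed. Within that list pde6ga, for the inhibitory subunit of rod phosphodiesterase 6, had lower ratios than guca1c. It stood at -1.64 (SE 0.24, 6 of 6 arrays below 0, -2.04 to -0.97) in AgNO3 and at -1.29 (SE 0.24, 6 of 6 below 0, -2.33 to -0.32) in AgNPs. It did not pass in either group (limma adjusted p = 0.10002 and 0.295). The catalytic cone subunit pde6c had -0.43 (SE 0.18) in AgNO3, with 6 of 6 arrays below 0, and -0.25 (SE 0.18) in AgNPs, with 4 of 6. Of 14 opsin, arrestin and opsin kinase genes, 10 were higher and 4 lower in each group, with medians of 0.14 and 0.09. Of these, 0 passed in AgNO3, and 1, the green cone opsin opn1mw1, was higher in AgNPs (0.86, SE 0.08, limma adjusted p = 0.00663, 6 of 6 arrays above 0). In the same list the arrestin gene saga had -0.29 (SE 0.08) in AgNO3, and the cone opsin kinase gene grk7a -0.63 (SE 0.14) in AgNPs, each with 6 of 6 arrays below 0 there and without passing. pde6ga, pde6c, saga and grk7a are named after their values were seen, as the genes of these lists below 0 on all 6 arrays of a group. More genes of these lists lay above 0 on all 6. They were opn1mw1, opn1lw2 and grk1b in both groups, pde6ha and rgs9b in AgNO3, and pde6a, gngt1, gngt2a, gngt2b and opn1mw3 in AgNPs. Of these, rgs9b and opn1mw3 mostly held values shared with many probes. By the best probe, their values were held by fewer than 10 probes on 2 and 0 arrays. The lowest value was 0.03 for rgs9b in AgNO3 and 0.03 for opn1mw3 in AgNPs. Of all features with 6 values, 2.54% in AgNO3 and 2.33% in AgNPs lay below 0 on all 6. Above 0 lay 2.01% and 2.55%. Clock genes are given beside these because photoreceptor transcripts vary over the day: of 28 tested, 17 were lower in AgNO3 and 22 in AgNPs, with medians of -0.06 and -0.20. There 0 passed in AgNO3, and 1, the repressor ciarta, was lower in AgNPs (-0.82, SE 0.11, limma adjusted p = 0.0475). Their part in the ratios of guca1c was not tested.

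The medians of the photoreceptor marker lists lay above guca1c, although pde6ga and saga among the rod markers and pde6c and grk7a among the cone markers had the low ratios given above. Of 13 cone markers measured, 10 were higher and 3 lower in AgNO3 and 9 higher and 4 lower in AgNPs. Their median per array ran from -0.05 to 0.29 in AgNO3 and from -0.01 to 0.25 in AgNPs. The 9 rod markers had array medians of -0.22 to 0.19 and -0.06 to 0.05, and the 9 markers of all photoreceptors -0.01 to 0.15 and 0.06 to 0.27. guca1c lay below the median of the cone markers on 12 of 12 arrays, by 0.47 to 1.28, and below that of the rod markers on 12 of 12, by 0.33 to 1.10. It also lay below the median of all features tested on 12 of 12, by 0.36 to 1.08. Since guca1c was chosen for its low ratios, its place below these medians is a description and no test.

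**Figure D5:**
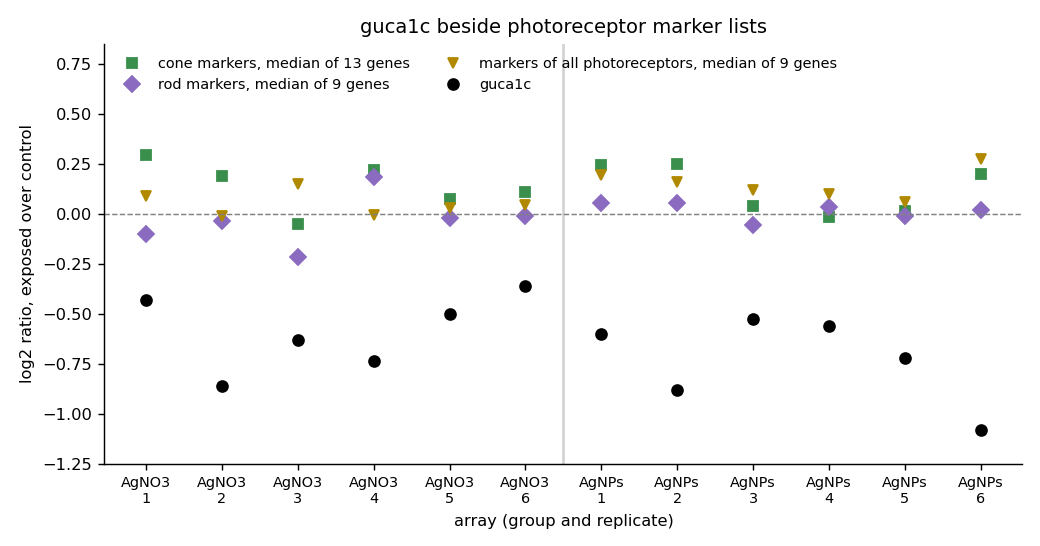
Log2 ratio of exposed over control larvae on each array for guca1c (black circles) and the medians of 13 cone markers, 9 rod markers and 9 markers of all photoreceptors. The marker medians stay between -0.22 and 0.29 on all arrays, and guca1c, chosen for its low ratios, lies below each of them on 12 of 12.

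Markers of other eye cells are given for the same arrays. In AgNO3 the medians over the list were 0.19 for 5 bipolar cell genes, 0.01 for 7 Müller glia genes, 0.10 for 5 genes of the retinal pigment epithelium, 0.05 for 6 lens genes and -0.04 for 4 genes of pineal photoreceptors. In AgNPs they were 0.15, 0.01, -0.08, -0.07 and 0.00. In none of these lists did a gene pass in either group.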

How the data were processed

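The table deposited by the authors holds 1 log ratio of both channels per probe and array, used here as log2 values. The base is not named and was assumed. Array medians lay between -0.0093 and 0.015, and 6.97% to 10.9% of values were empty. Scanner software, background correction, normalization and any turning of dye-swapped arrays: not given in the sources used here. Per the labels' protocols, Trizol-extracted total RNA was labelled with cyanine dyes. Intensities were not used, and precision is limited by how many arrays there are, among other things.

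Probes were named through the platform annotation and RefSeq (30186 probes with 1 gene, 13417 with none, 0 with several; 24749 by accession, 4278 by symbol, 1133 by synonym, 26 by their old symbol) and averaged per gene. A feature was tested if each dye orientation of each group had 2 or more of its 3 values: 25264 features, 7 of the 8 members. All 12 arrays entered 1 limma 3.58.1 model (R 4.3.3) with both group means and a dye term. Tests were 2-sided, with Benjamini-Hochberg adjustment over all features. The model was also run on simulated independent noise with known shifts. That simulation lacked the shared values, shared controls and unequal array spreads of these data, so no support for the calls is drawn from it. SEs and 95% intervals are the model's; gaps were left out, not filled. By the codes in the labels, arrays with the same replicate number shared no sample. Correlations of deviations from the group means were -0.05 to 0.09 over these 6 pairs and -0.11 to -0.005 for arrays sharing a control sample. The former pairs always had the same dye orientation and the latter opposite ones. Dye was not removed before correlating, so these correlations do not decide on pairing. Genes named are the members, the genes most like each member measured on 12 arrays, every measured gene of the channel and recoverin lists, and genes of other lists past the threshold; exceptions are marked. The members and lists were chosen with earlier results of these data known. No protein, promoter or probe sequences were used here.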

Additional observations from a re-analysis of the deposited data

Results flagged for a closer look

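In 5 of 16 sets of 4 to 6 arrays, 1 array stood far from the others by Dixon's criterion. Normally spread values meet it in about 1 of 20 sets. The share of all features that meet it on these arrays is not given here, so no excess among the members is read from this count. For gucy2f, AgNO3 replicate 4 had 2.25 where the other arrays ran from -0.04 to 0.21, and AgNPs replicate 6 had -1.01 where the others ran from -0.14 to 0.09. For guca1b, AgNO3 replicate 2 had -0.66 against -0.10 to 0.14. AgNPs replicate 1 had 0.49 for guca1d against -0.08 to 0.04, and 1.04 for guca1e against 0.003 to 0.27. These 4 genes are those whose probes mostly held values shared with many others, and the cause was not tested.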

How the results depend on the processing

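Against 3 calls in AgNO3, 6 in AgNPs and 0 for their difference, the counts (AgNO3, then AgNPs, then difference) were 0, 0 and not defined with each group fitted separately, 0, 20 and 0 after scaling arrays to equal spread, and 0, 10 and 0 with array weights. They were 0, 5 and 0 with at least 2 values per group, 1, 8 and 0 with probes kept apart, 4, 0 and 0 with dye-swapped arrays turned, and 0, 10 and 7 without AgNPs replicates 3 to 6. With the replicate number as a block they were 0, 0 and 0. By the codes, arrays with the same number shared no sample, and whether they were paired otherwise is not known. With the control sample as a random block (correlation 0.037) the counts were 3, 6 and 0. With values shared by 10 or more probes left out, an alternative chosen after seeing the data, they were 11, 48 and 0. Leaving out 1 array gave 0 to 2, 1 to 7 and 0 to 1. Where no alternative's own construction sets the count, the cause was not tested. Of 505 recomputed member values, 493 moved by less than the spread between arrays. Part of these could not move. A member with values on all arrays of a group keeps that group's estimate when only an array of the other group is left out. The same holds when the dye term is dropped. The count is therefore no measure of stability. With dye-swapped arrays turned, guca1c reversed to 0.059 in AgNPs and stood at -0.05 in AgNO3. With arrays scaled, guca1c stood at -1.21 in AgNPs. Without AgNPs replicates 3 to 6, guca1e stood at 0.79 and gucy2d at -0.47 in AgNPs. guca1c passed in AgNPs in 11 of 24 alternatives with a test and in AgNO3 in 1 of 24. Signal over background is unknown here, and the planned promoter search was not run.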
